A study of Mus musculus with 16 samples.

Results

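*Trp53*, which encodes the tumor suppressor p53, and 9 genes that p53 switches on directly were followed through 16 mouse osteosarcomas. The 10 genes were taken by name from a table of raw counts that holds 25054 genes, and all 10 had enough counts to be tested. All mice carried the Cre transgene *OsxCreERT2+/-* and floxed alleles of both p53 and *Rb1* (p53fl/fl;Rb1fl/fl). The 8 tumors called KO came from mice that also carried Arid1afl/fl, and the 8 tumors called WT came from mice without it, so WT refers to *Arid1a* alone. Every mouse had been given 400 μg of tamoxifen per gram at 1 month of age and was over 6 months old when examined, and both sexes were used. The Cre acts in cells expressing *Osterix*, a factor of bone-forming cells. By this design vessels, blood cells, muscle and other tissue within a tumor would keep intact p53, which gene-level counts cannot show. The animal codes give 8 KO mice with 1 tumor each, and 4 WT mice, of which N42 gave 4 tumors, N43 gave 2, and N215 and N25 gave 1 each. The N25 tumor is labeled as lung.

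The p53 protein is held low in unstressed cells by MDM2, which marks it for destruction, and it is stabilized after DNA damage and other stress. It then binds a pair of short half-sites near its targets and raises genes that stop the cell cycle (*Cdkn1a*), start cell death (*Bbc3*, *Bax*), adjust growth signaling (*Phlda3*, *Sesn2*) and limit p53 itself (*Mdm2*). Loss of p53 is a defining lesion of osteosarcoma in mice and patients, and several of these genes are also used by healthy tissues without p53 activity.

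Promoter sequences are shown for the 5 of these genes that carry a close match to the p53 half-site consensus in a searched window. Such sites are what p53 binds, but not every target had one in these windows. RefSeq promoter windows on GRCm38.p6 (250 bases before to 50 after a transcript start) were found for 9 of the 10 genes, in 12 windows, and none was found for *Zmat3*. The search took 2 half-sites of 10 bases each, 0 or 1 base apart, with the fixed C and G of each half-site core required and at most 3 mismatches elsewhere. The consensus reads the same on both strands. A site with at most 1 mismatch was present for 35 of 27025 genes (0.13%), and 2 of them were *Cdkn1a* and *Ccng1*. With at most 2 mismatches the site was present for 218 genes (0.807%), *Bax* included, and with at most 3 for 884 genes (3.27%), *Bbc3* and *Trp53* included. A match is a description of letters and not a shown binding site, and p53 also uses sites outside these windows. The 250 bases upstream of *Cdkn1a* (chr17:29090729-29090978, plus strand) and of *Ccng1* (chr11:40755287-40755536, minus strand) and the sites alone of the other 3 genes are printed 5′ to 3′, with the match in capitals and a base between half-sites in lower case. The sites lie at chr7:45467079-45467099 on the minus strand for *Bax*, chr7:16309486-16309505 on the plus strand for *Bbc3*, and chr11:69580284-69580303 on the plus strand for *Trp53*.
Cdkn1a: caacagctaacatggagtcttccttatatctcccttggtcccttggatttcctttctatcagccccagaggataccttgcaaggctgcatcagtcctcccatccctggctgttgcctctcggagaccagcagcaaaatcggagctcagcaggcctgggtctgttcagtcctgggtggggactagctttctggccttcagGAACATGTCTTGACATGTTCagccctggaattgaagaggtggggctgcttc
Ccng1: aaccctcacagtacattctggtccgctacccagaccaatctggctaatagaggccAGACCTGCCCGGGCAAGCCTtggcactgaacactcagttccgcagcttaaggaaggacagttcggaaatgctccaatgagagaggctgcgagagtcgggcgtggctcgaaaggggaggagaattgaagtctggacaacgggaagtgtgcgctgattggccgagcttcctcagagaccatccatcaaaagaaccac
Bax: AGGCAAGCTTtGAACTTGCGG
Bbc3: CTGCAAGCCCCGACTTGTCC
Trp53: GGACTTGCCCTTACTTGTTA
The *Cdkn1a* match begins 51 bases upstream of the transcript start of the printed window, and both of its half-sites together had 1 mismatch. RefSeq also gives another *Cdkn1a* start, whose window (chr17:29093519-29093818) had 7 mismatches at its best site. The further windows of *Bbc3* had 6 and 8 mismatches at their best sites. For *Phlda3* (5 mismatches), *Sesn2* (8), *Mdm2* (9) and *Eda2r* (9) the best site was past the limit of 3.

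Values are CPM, the counts of a gene scaled to a common library size with edgeR's TMM factors. The total was 1109487 to 15059640 counts in KO and 7806160 to 16962329 in WT, and Massa (1109487 counts) and Grilka (1812818 counts) were the shallowest libraries. In Massa 3 counts equal 6.69 CPM, so its values for weak genes are coarse. Ribosomal RNA genes held 0.437 to 18.4% of the counts in KO and 0.0974 to 1.57% in WT. Markers of other tissues set several tumors apart. The 10 skeletal muscle markers, all present, took 6.04% of the counts in Montana and 8.36% in Oregon, and at most 0.904% in the other tumors. The 10 salivary gland markers took 9.66% in Prince, and the 9 lung markers took 3.85% in the WT tumor N25 and 0.490% in Massa. Liver markers were highest in Zelda, at 0.296%. Osteoblast markers took 0.0357 to 2.65% in KO and 0.244 to 6.56% in WT, and macrophage markers 0.00910 to 0.102% and 0.0537 to 0.204%. In bulk tissue, fewer cells of a type and less RNA per cell cannot be told apart. The gene-level counts of the floxed genes take in all exons. *Arid1a*, the targeted gene, was 107 to 270 CPM in KO and 125 to 236 in WT (log2 fold change 0.16, adjusted p = 0.715 in edgeR's quasi-likelihood test), and *Rb1* was 27.8 to 161 CPM in KO and 38.1 to 80.0 in WT (log2 fold change 0.22). The *Arid1a* counts therefore did not separate the groups.

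None of the 10 genes differed between KO and WT past an adjusted p of 0.05 in edgeR's quasi-likelihood test, which called 4.01% of the 15413 genes tested. DESeq2 called 2 of them, *Mdm2* and *Trp53*, against 12.5% of its genes. At an unadjusted p under 0.05, 5 of the 10 genes, *Trp53*, *Mdm2*, *Ccng1*, *Bbc3* and *Phlda3*, were higher in KO, against 13.3% of all genes tested in that direction. In total 7 had a positive and 3 a negative log2 fold change, with a median of 0.51, against 0.10 over all genes tested. The 2 groups overlapped for all 10 genes (0.415% of all genes did not overlap). Without Oregon and Montana, the muscle-rich tumors, none of these 5 was under the unadjusted 0.05 (9.83% of all genes were higher in KO), and 2 other genes, *Cdkn1a* and *Eda2r*, were under it and lower in KO (9.53% of all genes were lower). The median of the 10 was then 0.05. Leaving out 1 tumor at a time, the count higher in KO was 1 without Montana, 2 without Oregon, N43 spine or N42 R pelvis, 3 without any of the other tumors of N42, and 4 or 5 otherwise. With ribosomal RNA content as a covariate it was 1, and without the 4 tumors of N42 it was 0. Calls fell over all genes too in these 2 fits. The share under the unadjusted 0.05 in either direction was 9.31% and 7.99%, against 23.0% in the main fit. Shares over all genes are not given here for the fits that left out 1 tumor. With counts summed per mouse no gene of the 10 was under 0.05 in either direction, against 7.88% of all genes.

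**Figure D1:**
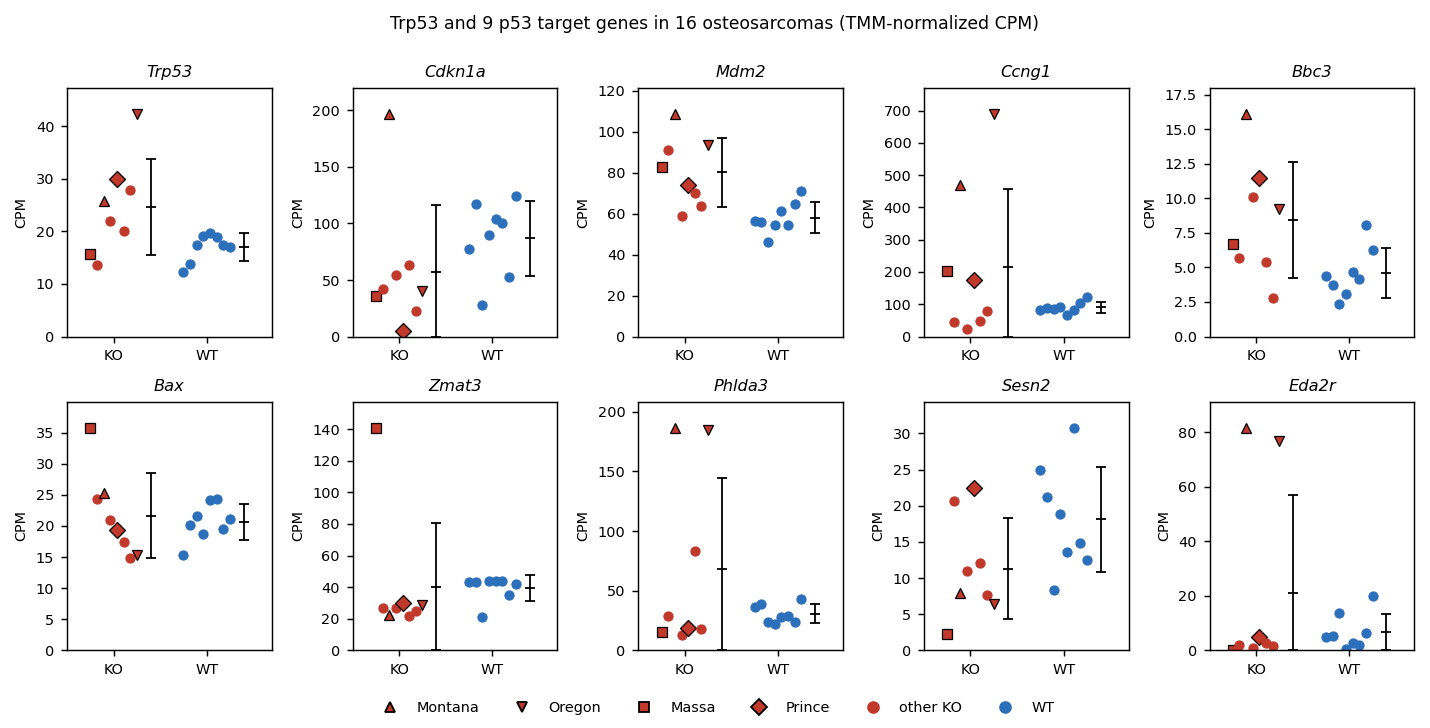
CPM of each of the 10 genes (vertical axes, from 0) in the 8 KO tumors (red) and the 8 WT tumors (blue). Points are tumors, the horizontal mark and bars are the mean ± SD cut off at 0, and 4 KO tumors have their own symbols. Montana and Oregon lie far above the rest for *Ccng1*, *Phlda3* and *Eda2r*, Massa does so for *Zmat3*, and the WT points are closer together than the KO points for most genes.

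*Trp53* itself was read in every tumor, at 7 counts in Massa and 64 or more in all but Massa and Grilka. Its level ran from 13.5 CPM (Medusa) through a median of 23.9 to 42.2 CPM (Oregon) in KO, and from 12.4 CPM (N43 spine) through a median of 17.5 to 19.7 CPM (N42 L limb) in WT. Thus 6 of the 8 KO tumors lay above every WT tumor, and Medusa and Massa lay within the WT range. The mean was 24.6 ± 9.12 CPM (SD, n = 8) in KO and 17.0 ± 2.61 (SD, n = 8) in WT. The log2 fold change was 0.55 ± 0.24 (SE) with an adjusted p of 0.183 in edgeR's test, and 0.61 with an adjusted p of 0.0480 in DESeq2. A two-sided exact permutation of the 16 tumors over log2 CPM gave p = 0.0375, and the same test on the means of the 12 mice gave p = 0.107, where the smallest possible values are 0.000155 and 0.00202. These p-values were computed for each of the 10 genes and are not adjusted. Without Prince, Oregon and Montana the log2 fold change was 0.21 (adjusted p = 0.669 in edgeR's test). The counts of *Trp53*, on chromosome 11, could include reads of *Trp53-ps*, a processed pseudogene with a stretch of 353 bases that is 97.7% identical to a *Trp53* transcript.

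*Mdm2*, the ubiquitin ligase that degrades p53 and is itself a p53 target, was the most even of the 10 genes. It ran from 58.8 CPM (Ohio) through a median of 78.3 to 108.4 CPM (Montana) in KO, and from 46.1 CPM (N215) through a median of 56.2 to 71.05 CPM (N43 pelvis) in WT. All 8 KO tumors were above the WT median and 5 were above every WT tumor. The log2 fold change was 0.47 ± 0.18 (SE), with an adjusted p of 0.124 in edgeR's test and 0.0161 in DESeq2. The two-sided exact permutation test gave p = 0.00311 over tumors and p = 0.0121 over mice, the smallest of the 10 genes in both. Without Prince, Oregon and Montana the log2 fold change of *Mdm2* was 0.31 (unadjusted p = 0.125, adjusted p = 0.380 in edgeR's test). The SD of its log2 CPM was 0.30 in KO, lower than in all but 0.928% of the genes tested.

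The cell cycle genes went apart. *Cdkn1a* encodes p21, the inhibitor of cyclin-dependent kinases through which p53 stops the cycle. It ran from 4.90 CPM (Prince) through a median of 41.3 to 196.4 CPM (Montana) in KO, and from 28.1 CPM (N215) through a median of 95.2 to 124.3 CPM (N43 pelvis) in WT. Only Montana exceeded the WT median, and Prince and Zelda lay under the lowest WT tumor. The log2 fold change was −0.59 ± 0.51 (SE; adjusted p = 0.515 in edgeR's test), and −1.23 without Montana (adjusted p = 0.119). The two-sided exact permutation p was 0.0864 over tumors and 0.457 over mice. The value of Prince rests on 59 counts at a depth of 15059640 (exact Poisson 95% interval 3.73 to 6.32 CPM, counting error only), in the tumor with 9.66% salivary gland marker counts, whose part in the result was not tested. For *Cdkn1a* the log2 fold change was −0.27 with counts summed per mouse and −0.093 with ribosomal RNA content as a covariate. An antisense transcript, AC167363.2, shares 273 exonic bases with *Cdkn1a*, and whether the counting used strand is not known here.

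*Ccng1* encodes cyclin G1, which recruits a phosphatase to MDM2. Its KO values spread from 23.3 CPM (Ohio) through a median of 126.8 to 687.9 CPM (Oregon), with Montana at 468.8, while all WT values lay between 67.6 and 123.1 CPM around a median of 86.6. Of the KO tumors 4 were above every WT tumor and 3 were below every WT tumor. The mean was 216 ± 239 CPM (SD, n = 8) in KO and 90.6 ± 16.6 (SD, n = 8) in WT, and the log2 fold change was 1.257 ± 0.56 (SE; adjusted p = 0.186 in edgeR's test). The two-sided exact permutation test over the tumors gave p = 0.485. Without Oregon and Montana the log2 fold change was 0.05, and without Prince as well it was −0.25.

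The cell death genes, *Bbc3* and *Bax*, stood at low and middle levels. *Bbc3* encodes PUMA, which sets off mitochondrial cell death. It ran from 2.78 CPM (Zelda) through a median of 7.96 to 16.1 CPM (Montana) in KO, and from 2.38 CPM (N215) through a median of 4.26 to 8.07 CPM (the lung-labeled N25) in WT. The 3 counts in Massa and the 4 in Grilka carry little information. Of the KO tumors 7 were above the WT median and 4 above every WT tumor. The log2 fold change was 0.89 ± 0.36 (SE; adjusted p = 0.154 in edgeR's test), and the two-sided exact permutation p was 0.0351 over tumors and 0.123 over mice. *Bax*, which opens the outer mitochondrial membrane, was 21.6 ± 6.83 CPM (SD, n = 8) in KO and 20.6 ± 2.92 (SD, n = 8) in WT. The fold change of *Bax*, 0.05 on the log2 scale, had a 95% interval of −0.37 to 0.48, with the tumors taken as independent. With counts summed per mouse the log2 fold change was 0.12 with a larger standard error, 0.31. *Bax* shares 192 exonic bases with *Gm45808* on the same strand.

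*Phlda3*, which restrains AKT signaling, and *Eda2r*, a receptor of the tumor necrosis factor family that is bound by ectodysplasin A2, were highest in the muscle-rich tumors Montana and Oregon. *Phlda3* was 186.2 CPM in Montana and 185.1 in Oregon, and 12.7 to 83.2 CPM in the other 6 KO tumors, with Grilka highest of these. Grilka had 0.00894% muscle marker counts. In WT *Phlda3* was 22.0 to 43.1 CPM, with N215, second in muscle marker counts among WT, at 23.6 CPM. *Eda2r* was 81.4 CPM in Montana and 76.6 in Oregon, and at most 4.81 CPM in the other 6 KO tumors. Massa had 0 counts, for which the exact Poisson 95% interval reaches 8.23 CPM (counting error only). In WT *Eda2r* was highest in N43 pelvis (20.0 CPM) and N215 (13.6 CPM), the 2 WT tumors with the most muscle marker counts (0.904% and 0.607%), and lowest in N42 R femur (0.398 CPM), where these markers took 0.00602%. The exception at the low end was the lung-labeled N25, with 6.33 CPM at 0.00177%. Against the median of the other 14 tumors, *Eda2r* was 30.4-fold higher in Montana and 28.6-fold higher in Oregon, *Phlda3* 7.20-fold and 7.16-fold, and *Ccng1* 5.56-fold and 8.16-fold. The part of muscle in these values was not tested.

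The log2 fold changes of these genes rested on Montana and Oregon. For *Phlda3* the value was 1.17 ± 0.55 (SE; adjusted p = 0.213 in edgeR's test) with all tumors and −0.10 without both. For *Eda2r* it was 1.66 ± 1.01 (SE; adjusted p = 0.335 in edgeR's test), −1.71 without both (adjusted p = 0.231) and −1.36 in DESeq2 with all tumors (adjusted p = 0.160). The mean log2 CPM of *Eda2r* was 0.22 lower in KO, opposite in sign to the fitted fold change (two-sided exact permutation p = 0.855). No direction is therefore given for *Eda2r*.

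**Figure D2:**
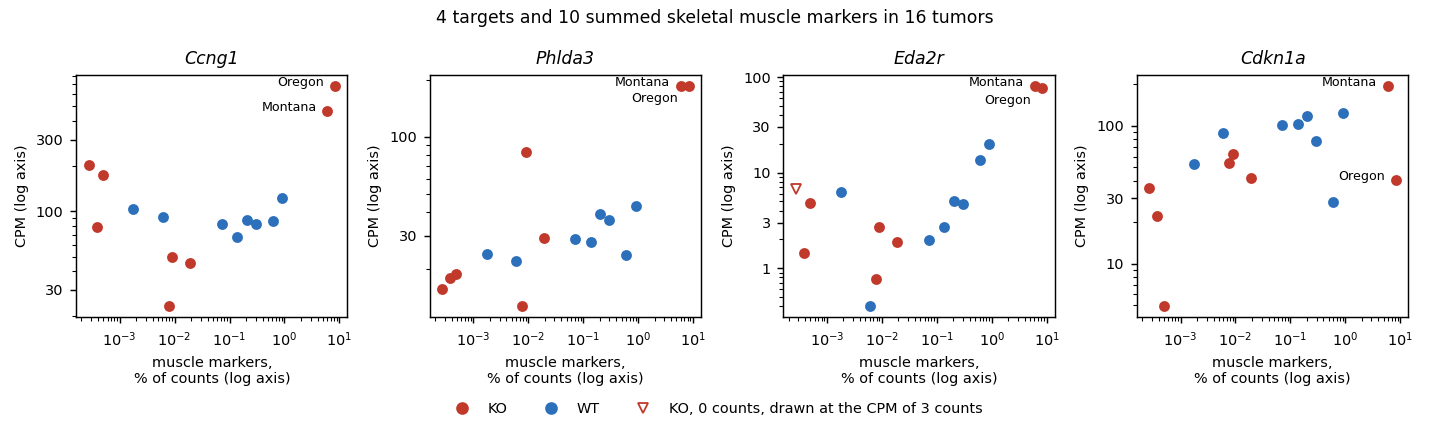
CPM of 4 targets (vertical, log axis) against the share of counts on 10 skeletal muscle markers (horizontal, percent, log axis) in each tumor, KO in red and WT in blue. Montana and Oregon are at the upper right for *Ccng1*, *Phlda3* and *Eda2r*, while for *Cdkn1a* Oregon (40.5 CPM) lies below most WT tumors, and the open triangle stands for the 0 counts of *Eda2r* in Massa.

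*Sesn2* encodes sestrin 2, a leucine sensor that restrains mTORC1. It ran from 2.23 CPM (Massa, 1 count) through a median of 9.44 to 22.5 CPM (Prince) in KO, and from 8.39 CPM (N215) through a median of 16.8 to 30.7 CPM (N42 L shoulder) in WT. Of the KO tumors 4 were below every WT tumor and none was above. The exact Poisson 95% intervals of these 4 (counting error only) all included the lowest WT value. The log2 fold change was −0.64 ± 0.38 (SE; adjusted p = 0.317 in edgeR's test), and the two-sided exact permutation p was 0.0567 over tumors and 0.297 over mice. Montana (7.91 CPM) and Oregon (6.43 CPM) were low for *Sesn2*, unlike for *Ccng1* and *Phlda3*.

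*Zmat3*, an RNA-binding zinc finger protein that acts on splicing and RNA stability, had the clearest single exception. Massa had 63 counts, or 140.5 CPM (exact Poisson 95% interval 108.0 to 179.8 CPM, counting error only). The other 7 KO tumors were at 21.5 to 30.1 CPM. In WT, N215 was at 20.9 CPM and the other 7 tumors at 35.1 to 44.0 CPM, with the 4 tumors of mouse N42 between 43.4 and 44.0 CPM. With all tumors the log2 fold change was −0.02 ± 0.37 (SE; adjusted p = 0.982 in edgeR's test), and without Massa it was −0.61 (adjusted p = 0.0664). *Zmat3*, *Mdm2* and *Cdkn1a* transcripts share stretches of at least 100 bases at 95% identity or more with transcripts of other genes, so some of their reads may be placed elsewhere.

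**Figure D3:**
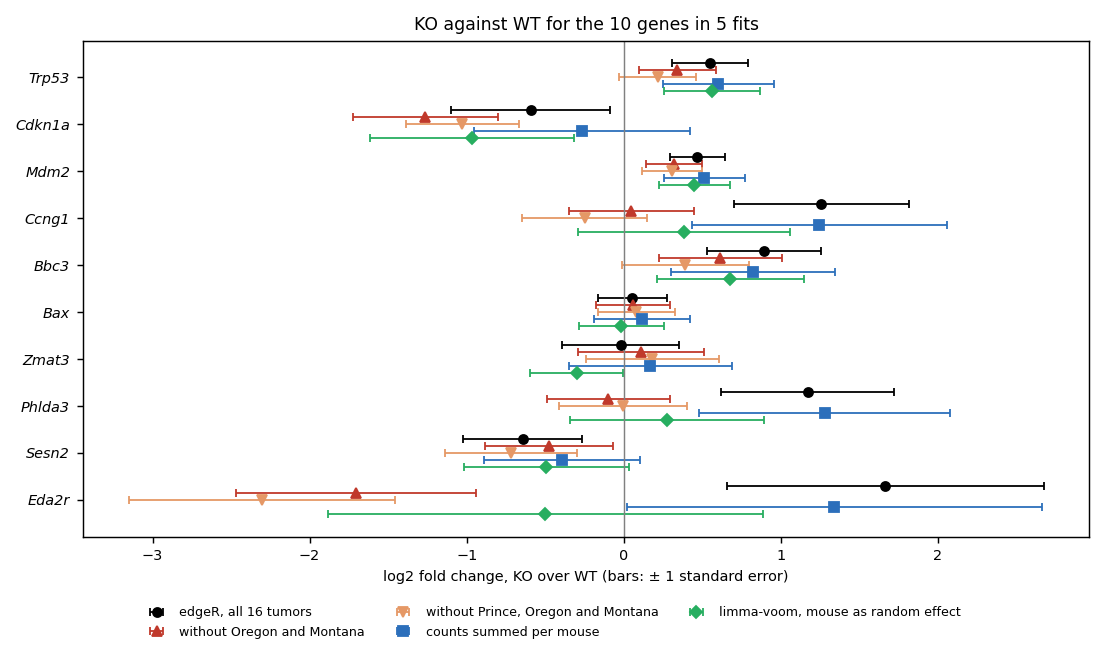
Log2 fold change, KO over WT (horizontal), for the 10 genes in 5 fits, with bars of 1 standard error. *Mdm2*, *Trp53* and *Bbc3* stay right of 0 and *Cdkn1a* and *Sesn2* left of 0 in all 5 fits, while *Ccng1*, *Phlda3* and *Eda2r* move to about 0 or below without Oregon and Montana.

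Levels between genes were compared per kilobase of annotated exon. In WT the mean (SD, n = 8) was 25.8 ± 4.72 CPM per kb for *Ccng1*, 24.4 ± 9.24 for *Cdkn1a*, 19.6 ± 5.09 for *Phlda3*, 13.1 ± 1.85 for *Bax* and 11.4 ± 1.49 for *Mdm2*. Then came *Sesn2* (5.22 ± 2.09 CPM per kb), *Trp53* (4.20 ± 0.646), *Zmat3* (3.45 ± 0.705), *Bbc3* (2.16 ± 0.855) and *Eda2r* (1.16 ± 1.13). The steps from *Phlda3* to *Bax*, *Mdm2* to *Sesn2*, *Trp53* to *Zmat3* and *Zmat3* to *Bbc3* were larger than the SD of either gene, and the other neighbors differed by less than the larger of their SDs. In KO the means of *Ccng1* (61.6 ± 68.2 CPM per kb), *Phlda3* (44.0 ± 48.6) and *Eda2r* (3.60 ± 6.06) included the high values of Montana and Oregon, and the medians were 36.1, 15.4 and 0.389. The KO medians of the other genes were 15.4 CPM per kb for *Mdm2*, 12.8 for *Bax*, 11.6 for *Cdkn1a*, 5.90 for *Trp53*, 3.75 for *Bbc3*, 2.72 for *Sesn2* and 2.33 for *Zmat3*.

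The 10 genes did not rise and fall together. Montana was among the 4 highest tumors for 7 of the 9 targets, the exceptions being *Zmat3* (rank 14) and *Sesn2* (rank 13), and Oregon was for 5. Zelda was among the 4 lowest for 7 of the 9, although it had the 3rd highest *Trp53* level. Massa was highest for *Bax* and *Zmat3* and lowest for *Sesn2* and *Eda2r*. Over the 45 pairs of the 10 genes, the median Pearson correlation of log2 CPM across the 16 tumors was 0.11, and −0.0029 without Montana and Oregon. Of the pairs 8 had a correlation above 0.5 with all tumors and 3 without these. The highest, 0.77, was between *Phlda3* and *Eda2r* and rested partly on the muscle-rich tumors. These correlations are descriptions, since tumors of N42 and N43 share a mouse and all values of a tumor share a library. The SD of log2 CPM was larger in KO than in WT for all 10 genes, as it was for 90.4% of all genes tested. The KO tumors came from 8 mice and the WT tumors from 4, and the shallowest libraries were KO. The part of mouse and depth in the spread was not tested.

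**Figure D4:**
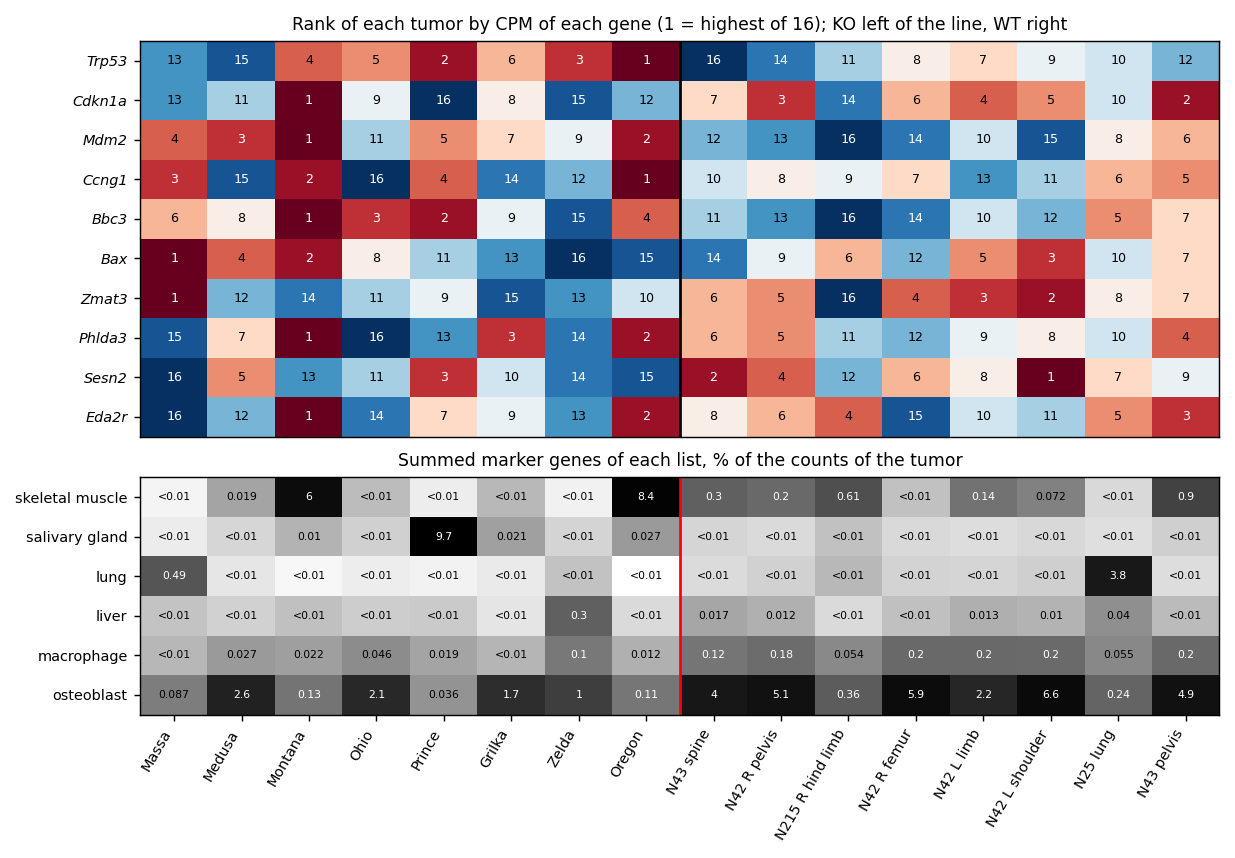
Upper panel, the rank of each of the 16 tumors (columns, KO left of the line) by CPM of each gene (rows), where 1 is the highest and red marks high ranks. Lower panel, the percent of counts on 6 lists of tissue marker genes, with darker gray for more on a log scale. Montana and Oregon hold rank 1 or 2 for *Mdm2*, *Ccng1*, *Phlda3* and *Eda2r* and carry 6.04% and 8.36% muscle marker counts.

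The genes most like *Trp53* over the 16 tumors by Pearson correlation of log2 CPM were *Ndufab1* (0.82), *Ccdc58* (0.80), *Cpeb3* (0.79), *Flad1* (0.79) and *Zbtb18* (0.78). Those most like the mean of the 9 targets were *Vps4a* (0.91), *Kif1c* (0.88), *Map4* (0.87), *Bag3* (0.87) and *Psmc5* (0.87). *Trp53* and the 9 targets were left out of both rankings, so their absence from these lists is not a result. Taken separately, the highest correlation of a target with *Trp53* over the 16 tumors was 0.53, for *Ccng1*. Without Montana and Oregon that correlation was 0.024. The 5 genes listed for *Trp53* are the highest of all genes tested, so their values are no measure for the 9 targets.

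Other genes of the pathway were taken from lists of 36 further targets, 16 regulators of p53 and 10 cell cycle genes that active p53 lowers. Of the 36 targets 34 were tested, 14 with a positive and 20 with a negative log2 fold change (median −0.12), and 2 passed the adjusted threshold, both lower in KO (background 2.15% for lower). They were *Trp53inp1*, which amplifies p53-dependent death and autophagy, and *Ddit4*, which restrains mTORC1 under stress. *Trp53inp1* was 14.8 CPM (Grilka) to 235 CPM (Zelda) in KO and 32.0 CPM (N215) to 614 CPM (N42 L limb) in WT, and its log2 fold change was −2.33 ± 0.59 (SE; adjusted p = 0.0372 in edgeR's test). *Ddit4* was 27.4 CPM (Oregon) to 95.3 CPM (Grilka) in KO and 30.1 CPM (N25) to 306 CPM (N42 L shoulder) in WT, and its log2 fold change was −1.83 ± 0.41 (SE; adjusted p = 0.0219 in edgeR's test). For both, N25 or N215 lay within the KO range, so the groups overlapped. With counts summed per mouse the adjusted p was 0.592 for *Trp53inp1* and 0.568 for *Ddit4*, and without the 4 tumors of N42 it was 0.586 for both. Leaving out 1 tumor at a time ended the call of *Ddit4* for N42 L shoulder (adjusted p = 0.0510 in edgeR's test). It ended that of *Trp53inp1* for 11 tumors, namely Medusa, Montana, Ohio, Grilka, Oregon, both tumors of N43 and all 4 of N42 (adjusted p from 0.0522 to 0.0751 in edgeR's test), although the log2 fold change stayed between −2.38 and −2.19. With ribosomal RNA content as a covariate the log2 fold change was −1.10 for *Trp53inp1* (adjusted p = 0.691 in edgeR's test) and −1.59 for *Ddit4* (adjusted p = 0.469 in edgeR's test). Without Oregon and Montana the adjusted p was 0.0907 for *Trp53inp1* and 0.0604 for *Ddit4*. Macrophage markers were also lower in KO, with 6 of the 8 markers past the threshold. Osteoblast markers were lower in KO for 8 of 9, none of them past the threshold. Their part in the result was not tested.

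None of the other 32 tested targets passed. Of the arrest list, *Btg2*, *Plk2* and *Gadd45a* were the most abundant, at log2 fold changes of −0.23, 0.09 and −1.07 (edgeR). Of the cell death list, *Apaf1* and *Ei24*, the most abundant after *Trp53inp1*, were at −0.37 and 0.07. Of the metabolic list, *Ak1*, an adenylate kinase abundant in muscle, was at 1.94 ± 0.88 (SE), with 1060 CPM in Oregon, 439 in Montana and at most 80.6 in the other tumors, and *Sesn1* was at −1.06. *Tigar*, chosen after its values were seen, was at 134.0 CPM in Oregon and 113.8 in Montana and at most 14.3 CPM elsewhere. *Perp*, chosen in the same way, was at 207 CPM in Prince and at most 15.6 CPM elsewhere. Of the DNA repair targets *Ercc5*, *Polk* and *Rrm2b* were at −0.05, −0.22 and 0.69, and of the feedback targets *Cop1*, *Rchy1* and *Ppm1d* at −0.45, −0.04 and −0.31. Of the last list *Tap1*, *Dcxr* and *Dglucy* were at −0.31, −0.32 and 0.36. *Gdf15* and *Trp73* had too few counts to be tested.

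**Figure D5:**
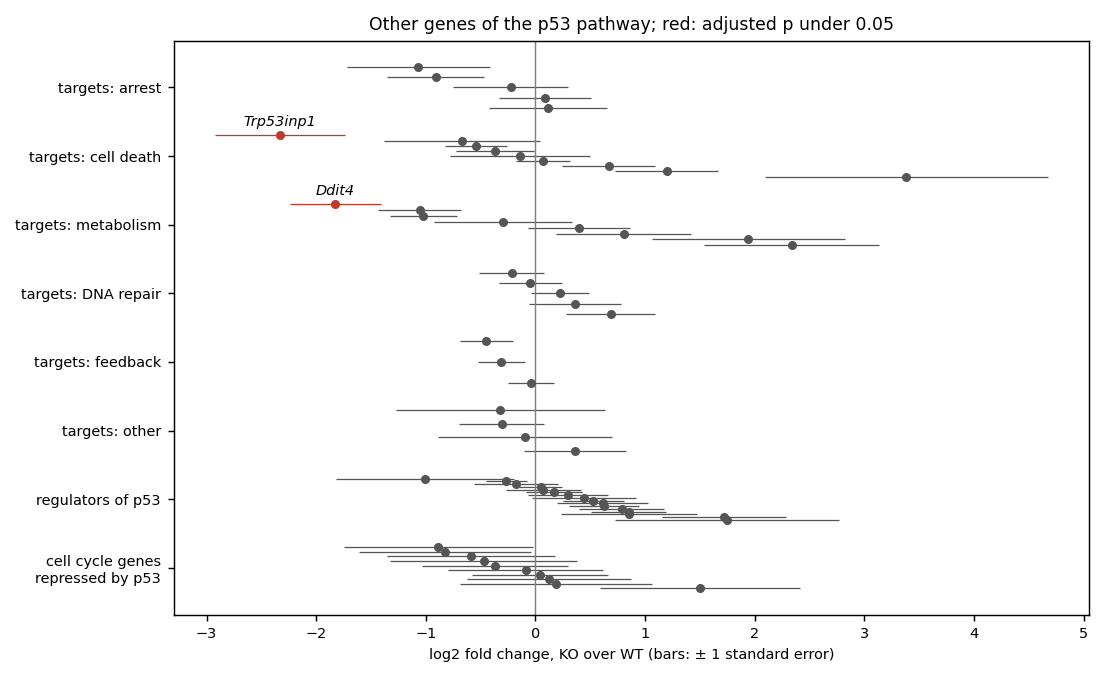
Log2 fold change, KO over WT (horizontal, bars of 1 standard error), of each tested gene in 8 lists of the p53 pathway (rows), with genes past an adjusted p of 0.05 in red. Only *Trp53inp1* and *Ddit4* are red, and the regulators lie mostly right of 0.

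None of the 16 regulators passed the threshold. They had a median log2 fold change of 0.48, with 13 above 0 and 3 below, against 0.10 over all genes. The most abundant, *Crebbp*, *Ep300* and *Usp7*, which acetylate p53 (the first pair) or remove ubiquitin from it, were at 0.05, −0.26 and 0.17. Of the 10 cell cycle genes none passed either (median −0.23, 4 above 0 and 6 below). *Mki67*, *Top2a* and *Foxm1* were the most abundant of these, at 1.503 ± 0.91 (SE), 0.19 ± 0.87 and 0.13 ± 0.75.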

How the data were processed

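RNA was extracted from 16 osteosarcomas, ribosomal RNA was removed, and the libraries were sequenced from one end. Per the labels and the study's methods, the authors aligned the reads to mm10 with Novoalign 2.08.01 and deposited raw counts per gene, which were analyzed here as whole numbers without normalization. The strand is not given in the sources used here. Groups came from the genotype labels. The test was edgeR 4.0.16 in R 4.3.3 (TMM, filterByExpr at 10 counts and 15 in total, glmQLFTest, Benjamini-Hochberg threshold 0.05), which left out 9641 genes. Log2 CPM used a prior count of 2. Permutation tests took all 12870 splits of the tumors or all 495 of the mice. DESeq2 1.42.0 gave no adjusted p for 4976 genes. limma 3.58.1 was a further alternative. Python 3.11.15 was used for permutations, promoters and figures, and scripts were tested on simulated data. GENCODE vM21 (GRCm38), in which 24997 genes were found, gave positions and exon lengths. No label says that the tumors of a mouse arose separately, so p-values over tumors may measure spread within a mouse. No pair of libraries was identical. Counting intervals and floors cover counting error only. The genes and lists were chosen with earlier results of these data known. Named genes were the 10 genes, and in each list those past the threshold and the 3 most abundant, with the 5 most correlated.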

Additional observations from a re-analysis of the deposited data

Results flagged for a closer look

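*Zmat3* stood apart in 1 tumor of each group. In KO, Massa was the highest at 140.5 CPM, and on the log2 CPM scale its gap to the next tumor was 0.82 of the whole KO range. Massa was also the shallowest library, with 1109487 counts, 13.7% of them on ribosomal RNA genes and 0.490% on lung markers, and the 63 counts of *Zmat3* there give an interval whose lower end is above every other tumor. In WT, N215 R hind limb was the lowest at 20.9 CPM, with a gap of 0.697 of the WT range on the same log2 scale. It was the shallowest WT library, with 7806160 counts. In all 20 groups (10 genes in KO and in WT) were checked, of which chance is expected to mark about 1 in 20. The part of depth or tissue content in these values was not tested.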

How the results depend on the processing

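The 10 genes were refitted under 27 alternatives (leaving out N25 counts as 2 of them), of which leaving out Oregon and Montana was chosen after seeing the data, as were all alternatives for *Trp53inp1* and *Ddit4*. No paired analysis was possible because no mouse gave tumors to both groups. *Trp53*, *Mdm2* and *Bbc3* stayed above 0 and *Cdkn1a* and *Sesn2* below 0 in all 27, while DESeq2 moved *Trp53* (0.61) and *Mdm2* (0.49) past the threshold. With ribosomal RNA content as a covariate *Cdkn1a* was −0.093 and *Sesn2* −0.31, against −0.59 and −0.64, while *Ccng1* was 0.75, *Phlda3* 0.77 and *Eda2r* 0.94. *Cdkn1a* was −0.27 per mouse. The log2 fold change of *Zmat3* turned positive in DESeq2 (0.037), with RLE scaling (0.064), per mouse (0.17), without N42 (0.17), without Prince, Oregon and Montana (0.18) and without Oregon and Montana (0.11), and ranged from −0.61 (without Massa) to 0.054 (without Montana) when 1 tumor was left out. That of *Bax* turned negative with no filter (−0.022), in limma-voom, where mouse was a random effect (−0.015), without Massa and Grilka (−0.078) and with ribosomal RNA content as a covariate (−0.10), and ranged from −0.073 (without Massa) to 0.11 (without Zelda). *Eda2r* turned negative in DESeq2 (−1.36), in limma-voom (−0.50), without Oregon and Montana (−1.71) and without Prince as well (−2.30). *Phlda3* was −0.10 and −0.0050 in the same 2 fits, and *Ccng1* −0.25 in the latter. The cause of these changes beyond the tumors left out was not tested.

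Over all genes, 618 passed the threshold (287 higher and 331 lower in KO), 2517 in DESeq2 (1559 and 958), 10 with counts summed per mouse, 17 in limma-voom, 8 without N42, 7 with ribosomal RNA content as a covariate, 372 without Oregon and Montana, and 252 (without N42 L shoulder) to 1348 (without Zelda) when 1 tumor was left out. With RLE scaling the calls were 335 higher and 293 lower. *Trp53inp1* passed in 9 of the 27 alternatives and *Ddit4* in 20, all of them in the same direction. Depth limits *Bbc3*, *Sesn2* and *Eda2r* most in Massa and Grilka, where 3 counts equal 6.69 and 4.03 CPM.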
